A study of Cavia porcellus with 10 samples.

Results

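The HOX genes are the homeobox genes of the 4 clusters HOXA, HOXB, HOXC and HOXD, and they were taken here as every gene of the guinea pig table whose name is HOXA, HOXB, HOXC or HOXD followed only by digits. This rule, which uses names and no measured value, found 32 of 25028 genes. HOX proteins bind DNA through the homeodomain and set positional identity along the body axis. The order of the genes within a cluster follows the order of their expression domains, so that genes with low position numbers (anterior genes) are used nearer the head and genes with high position numbers (posterior genes) nearer the tail. In the female reproductive tract, posterior HOXA genes are expressed in an ordered series from oviduct to vagina, with HOXA11 known from the uterus and cervix and HOXA13 from the cervix and upper vagina. The tract keeps HOX expression in the adult, when several of these genes respond to steroid hormones.

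Cervical tissue of 10 Hartley guinea pigs was sequenced as poly(A)-selected, strand-specific RNA, from animals in 3 reproductive stages. NP were non-pregnant females in estrus (n = 3), MT were mid-pregnant females with an estimated gestation of 43.6 ± 0.5 days (n = 3), and LT were late-pregnant females at 65.2 ± 1.2 days that were not in labor (n = 4). No animal was treated, and the vaginal end of the cervix was taken to keep uterine muscle out. The comparisons ask how the cervix changes from estrus to mid-pregnancy and from mid-pregnancy to term.

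Each library held between 18730665 and 27881572 reads counted on genes, of which 3023 to 6298 fell on HOX genes. Values are TPM, a measure of transcript level per length that has the same total in each animal, and the study's threshold for an active gene is 3 TPM, which corresponded to a median of 55 to 104.5 reads. Changes are log2 fold changes of TPM + 1, tested with limma and adjusted over 12645 genes with a stage mean of at least 3 TPM. The median gene of all those tested was shifted by -0.14 between NP and MT, -0.16 between MT and LT, and -0.28 between NP and LT, so each change below stands against that shift. The tissue held markers of squamous epithelium, secretory epithelium, fibroblasts and smooth muscle, and their parts differed between animals. The library NP1 had 3895 TPM of summed squamous markers against 1121 and 1250 TPM in the other NP animals, and LT3 and LT4 had the highest sums of smooth muscle markers. In such bulk tissue, fewer cells of a type and less RNA per cell cannot be told apart.

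Of the 32 HOX genes, 30 had at least 1 read in some animal and 17 passed the filter: 5 of 7 HOXA genes, 5 of 8 HOXB genes, 0 of 8 HOXC genes and 7 of 9 HOXD genes. The means of 17 HOX genes reached 3 TPM in NP, of 16 in MT and of 11 in LT. Since 6 of the 17 had an LT mean under 3 TPM and passed only through an earlier stage, the filter favours genes that were lower at term, and counts over the 17 are a description. HOXA4, HOXA7, HOXA9, HOXA10, HOXB3, HOXB8 and HOXC9 were not analysed here. Every HOX ranking and share below is therefore among the 32 genes only.

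The summed TPM of the 32 HOX genes averaged 397 ± 33.4 in NP (SD, n = 3), 296 ± 24.1 in MT (n = 3) and 185 ± 3.59 in LT (n = 4). The lowest NP animal, at 358 TPM, was above the highest MT animal, at 324 TPM, and the lowest MT animal, at 282 TPM, was above the highest LT animal, at 188 TPM. The 4 LT animals were alike in the sum but not in its makeup. HOXA made up 52.9% of HOX TPM in NP, 46.6% in MT and 31.9% in LT. Its summed TPM were 210 ± 23.5, 138 ± 22.9 and 59.2 ± 14.0 in these stages. HOXB had 105 ± 12.5, 99.4 ± 5.90 and 65.8 ± 6.50 TPM, so its NP and MT animals overlapped and its LT animals were lower than either. HOXD had 79.1 ± 7.79 TPM in NP and 58.2 ± 2.06 TPM in MT, and in LT it ranged from 40.1 to 80.8 TPM, which takes in all MT animals and NP3 (70.1 TPM), while NP1 and NP2 were higher. HOXC gave less than 1% of HOX TPM in every stage.

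**Figure D1:**
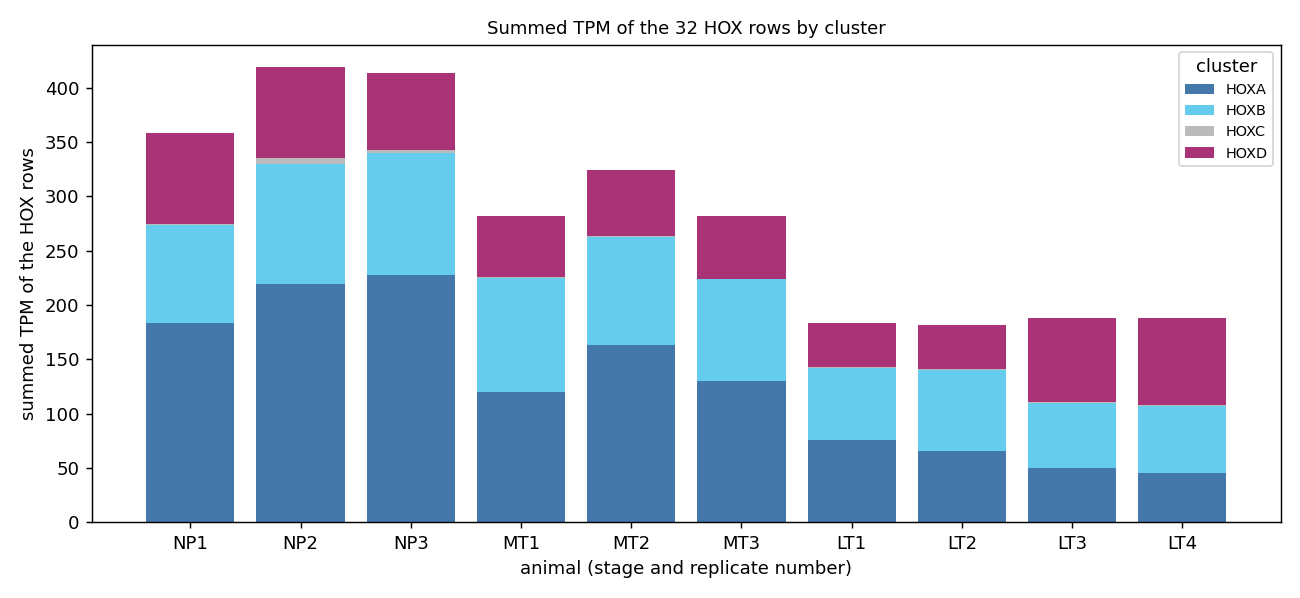
Summed TPM of the 32 HOX genes in each of the 10 animals, stacked by cluster, with the vertical axis from 0. The HOXA part is smaller in the 4 LT animals (45.3 to 75.5 TPM) than in any NP animal (183 to 227 TPM), while the HOXD part of LT3 (78.0 TPM) and LT4 (80.8 TPM) is near the NP level.

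HOXA11 and HOXA13 were the most abundant transcripts of the estrous cervix among the HOX genes analysed. HOXA11 had 85.8, 94.9 and 110 TPM in the 3 NP animals, 57.7, 87.1 and 65.3 TPM in the 3 MT animals, and 36.3, 31.6, 15.5 and 11.3 TPM in the 4 LT animals. NP and MT overlapped, every LT animal was below every MT animal, and LT3 and LT4 were the lowest. The change was -0.48 (SE 0.37, adjusted p = 0.390) from NP to MT and -1.65 (SE 0.35, adjusted p = 0.00875) from MT to LT.

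HOXA13, whose human mutations cause hand-foot-genital syndrome with defects of the uterus and vagina, had 78.5, 92.6 and 83.0 TPM in NP, 44.5, 61.6 and 53.3 TPM in MT, and 33.5, 28.5, 28.4 and 26.7 TPM in LT. The 3 stages did not overlap, and unlike HOXA11 the LT animals lay close together. HOXA13 fell by 0.67 on the log2 scale (SE 0.13, adjusted p = 0.00803) from NP to MT and by 0.83 (SE 0.12, adjusted p = 0.00282) from MT to LT, and it was the only HOX gene whose fall from NP to MT passed the test under each of the 21 alternatives. The ratio of HOXA13 to HOXA11 was between 0.707 and 0.976 in the 6 NP and MT animals, 0.923 and 0.902 in LT1 and LT2, and 1.83 and 2.36 in LT3 and LT4. HOXA11 was the higher of the pair in 8 animals, and HOXA13 in LT3 and LT4.

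The anterior HOXA genes were less abundant, and HOXA3, HOXA5 and HOXA6 fell from MT to LT. HOXA3, a gene of pharyngeal arch development, had 7.46, 12.4 and 14.2 TPM in NP, 6.85, 5.48 and 4.36 TPM in MT, and 1.35, 2.46, 2.48 and 2.44 TPM in LT. HOXA6 had 3.58, 7.42 and 7.06 TPM in NP, 3.31, 2.50 and 2.53 TPM in MT, and 1.13, 0.777, 0.773 and 0.896 TPM in LT. For both genes the stages did not overlap, although NP1 lay close to the MT animals. HOXA5, which is needed for lung development and is expressed in mesenchyme, had 5.82, 9.12 and 10.5 TPM in NP, 5.43, 5.14 and 3.37 TPM in MT, and 2.27, 1.55, 1.85 and 3.12 TPM in LT. Its stages did not overlap either, by margins that are small beside the spread within each stage. From MT to LT the 3 genes fell by 1.05 (HOXA3, adjusted p = 0.0120), 0.99 (HOXA6, adjusted p = 0.0132) and 0.82 (HOXA5, adjusted p = 0.0298). From NP to MT, HOXA3 fell by 0.89 (adjusted p = 0.0397) and HOXA6 by 0.85 (adjusted p = 0.0423), while HOXA5 changed by -0.73 without passing (adjusted p = 0.0741). HOXA2, near the anterior end of the cluster, was under 2 TPM in every animal.

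**Figure D2:**
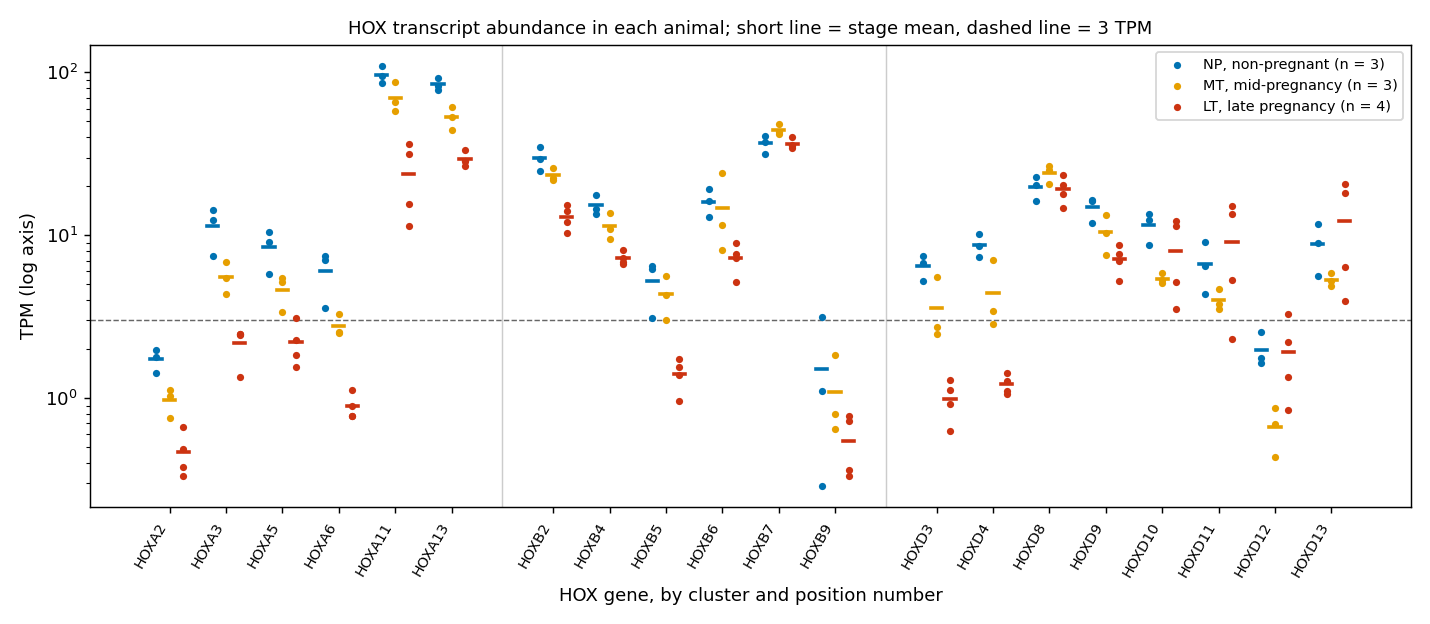
TPM (log axis) of 20 HOX genes, each with at least 100 reads over all animals, by cluster and position number, with a point for each animal, a short line at the stage mean (NP n = 3, MT n = 3, LT n = 4) and a dashed line at 3 TPM. HOXA11 and HOXA13 lie highest in NP (means 96.9 and 84.7 TPM), HOXA3, HOXA5, HOXA6, HOXB5, HOXD3 and HOXD4 have an LT mean below the dashed line, and the LT points of HOXD11 and HOXD13 spread widely.

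In the HOXB cluster HOXB2, HOXB4 and HOXB5 fell from MT to LT, and HOXB7 did not pass in any comparison. HOXB2, known from hindbrain patterning, had 24.7, 29.4 and 34.9 TPM in NP, 21.7, 25.7 and 22.5 TPM in MT, and 14.1, 15.3, 12.1 and 10.4 TPM in LT. HOXB4, known for supporting blood stem cells, had 17.6, 13.6 and 14.5 TPM in NP, 10.9, 13.7 and 9.47 TPM in MT, and 7.27, 8.08, 6.67 and 6.83 TPM in LT. HOXB5 had 3.11, 6.43 and 6.18 TPM in NP, 5.65, 4.33 and 3.02 TPM in MT, and 1.55, 1.73, 0.957 and 1.40 TPM in LT. In these 3 genes NP and MT overlapped and every LT animal lay below every MT animal. From MT to LT, HOXB2 fell by 0.81 (SE 0.15, adjusted p = 0.00547), HOXB4 by 0.57 (SE 0.14, adjusted p = 0.0155) and HOXB5 by 1.13 (SE 0.26, adjusted p = 0.0121). HOXB4 did not pass when TPM were rescaled so that the median gene did not shift (adjusted p = 0.0752), nor in the count tests.

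HOXB6 had 12.9, 19.1 and 16.3 TPM in NP, 24.3, 11.6 and 8.07 TPM in MT, and 7.64, 8.93, 5.19 and 7.24 TPM in LT. MT1 held the highest value of any animal, and the MT animals overlapped both other stages. The NP to LT difference of HOXB6 (-1.06, SE 0.31, adjusted p = 0.0167) was the only one to pass, and it missed the threshold with the rescaled TPM (adjusted p = 0.0575). HOXB7 had 31.6, 40.6 and 37.6 TPM in NP, 42.1, 43.1 and 48.4 TPM in MT, and 35.3, 39.9, 34.1 and 35.9 TPM in LT. Every MT animal was above every NP and LT animal. The changes of HOXB7 were 0.28 (SE 0.11, adjusted p = 0.103) from NP to MT and -0.29 (SE 0.10, adjusted p = 0.0602) from MT to LT. From NP to LT its change was -0.01 with a 95% interval of -0.24 to 0.22, and with the rescaled TPM it was 0.31 (adjusted p = 0.0103), so its direction depends on the scaling. Among the HOX genes analysed, HOXB7 was the most abundant transcript in LT, with a mean of 36.3 TPM against 29.3 TPM for HOXA13 and 23.7 TPM for HOXA11. Its gene model is short, with 0.324 of the reads per TPM of the median HOX gene. Over the animals of all stages, HOXB7 ranked 3 among the HOX genes by mean TPM and 5 by reads.

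The HOXC cluster was nearly silent. HOXC12 and HOXC13 had 0 reads in all 10 animals, which allows up to 3 reads in a library, which is a small share of the HOX reads of any animal. These limits cover counting error only. HOXC4 was the highest of the cluster, with 5, 37 and 23 reads in NP and stage means of 1.64 ± 1.34, 0.253 ± 0.137 and 0.213 ± 0.186 TPM. HOXC5 followed with 3, 20 and 9 reads in NP. NP2 held the most reads of both genes and NP1 the fewest among the NP animals. The other HOXC genes, HOXC6, HOXC8, HOXC10 and HOXC11, had 28 reads or fewer each over all animals. HOXB1, HOXB13 and HOXD1 were as scarce, with 30, 5 and 26 reads in all. HOXB13, a gene of the prostate and hindgut, and HOXC11 had 5 reads each.

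In the HOXD cluster, HOXD3 and HOXD4 fell from MT to LT. HOXD3 had 5.25, 7.50 and 6.79 TPM in NP, 5.56, 2.47 and 2.74 TPM in MT, and 1.13, 0.631, 0.927 and 1.29 TPM in LT. HOXD4 had 7.40, 8.63 and 10.2 TPM in NP, 7.05, 3.41 and 2.86 TPM in MT, and 1.42, 1.28, 1.07 and 1.10 TPM in LT. MT1 stayed near the NP level for both genes, and the LT animals were lowest. From MT to LT, HOXD3 fell by 1.15 (SE 0.25, adjusted p = 0.00945) and HOXD4 by 1.22 (SE 0.25, adjusted p = 0.00725), and HOXD4 fell by 0.91 (adjusted p = 0.0394) from NP to MT. In the middle of the cluster, HOXD8 ranged from 14.8 to 26.6 TPM over all animals, with means of 19.8, 24.1 and 19.1 TPM, and did not pass in any comparison. HOXD9, which acts in limb and trunk patterning, had 11.8, 16.4 and 16.3 TPM in NP, 7.61, 13.4 and 10.4 TPM in MT, and 6.97, 5.20, 7.68 and 8.68 TPM in LT. MT overlapped both other stages, and the NP to LT difference of HOXD9 was -0.97 (SE 0.21, adjusted p = 0.00382).

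The posterior HOXD genes, which pattern the distal limb and the genital tubercle, did not decline in all LT animals. They are shown by animal because the LT values lay far apart, a choice made after the values were seen. HOXD10 had 13.5, 12.3 and 8.76 TPM in NP, 5.85, 5.08 and 5.35 TPM in MT, and 3.55, 5.18, 11.3 and 12.2 TPM in LT. HOXD11 had 9.15, 6.51 and 4.38 TPM in NP, 3.77, 3.53 and 4.69 TPM in MT, and 2.30, 5.34, 15.2 and 13.5 TPM in LT. HOXD13 had 11.8, 8.97 and 5.65 TPM in NP, 5.27, 4.89 and 5.89 TPM in MT, and 3.95, 6.35, 20.7 and 18.3 TPM in LT. In each of these genes LT1 was the lowest of all animals, below every MT animal. LT2 was within the MT range for HOXD10 and slightly above it for HOXD11 and HOXD13. LT3 and LT4 were above every MT animal, and for HOXD11 and HOXD13 above every NP animal too. HOXD12, below the filter, had 0.848, 1.35, 3.29 and 2.20 TPM in LT against 0.438 to 0.867 TPM in MT. With 1.76, 2.55 and 1.64 TPM in NP, only LT3 was above every NP animal for this gene. The change from MT to LT was 0.36 for HOXD10 (95% interval -0.42 to 1.13, adjusted p = 0.459), 0.75 for HOXD11 (-0.35 to 1.85, adjusted p = 0.270) and 0.81 for HOXD13 (-0.26 to 1.88, adjusted p = 0.221). The intervals leave room for a fall as well as for a rise of more than 1 on the log2 scale. HOXD13 did pass in DESeq2 on the counts (log2 change 1.39, adjusted p = 0.0369), and HOXD11 passed without LT1 (1.20, adjusted p = 0.0382), while without LT3 the changes were 0.49 for HOXD13 (adjusted p = 0.460) and 0.43 for HOXD11 (adjusted p = 0.538).

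The balance of the 2 ends of the HOXD cluster therefore differed between animals. The ratio of HOXD13 to HOXD4 was 1.60, 1.04 and 0.556 in NP, 0.747, 1.43 and 2.06 in MT, and 2.77, 4.97, 19.4 and 16.6 in LT. All 4 LT animals were above all others, LT1 and LT2 with the low HOXD4 shared by the LT animals and LT3 and LT4 with a high HOXD13 as well.

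Other transcripts moved with the posterior HOXD genes in LT3 and LT4. EVX2, the homeobox gene that lies beside HOXD13, was at 0.304, 0.567, 3.01 and 2.85 TPM in LT and between 0.444 and 1.21 TPM in the other animals. ISL1, a homeobox gene of the genital and hindlimb mesenchyme, was at 1.75, 0.854, 5.57 and 4.43 TPM in LT. EMX2, needed to form the uterus and the urogenital tract, went the way of HOXA11, with 132, 131 and 133 TPM in NP, 142, 159 and 135 TPM in MT, and 90.1, 61.5, 38.2 and 32.3 TPM in LT. LT3 and LT4 were the highest of the 10 animals for EVX2 and ISL1 and the lowest for EMX2. EVX2 and ISL1 were picked after their values were seen. The 12 smooth muscle markers, none at 0, summed to 32073, 11555 and 9123 TPM in NP, 13472, 20276 and 15584 TPM in MT, and 19825, 19885, 39221 and 40610 TPM in LT. NP1, the NP animal with the highest smooth muscle sum, also had the highest HOXD10, HOXD11 and HOXD13 of the NP animals, whereas MT2, with the highest smooth muscle sum in MT, had the lowest of all 3 genes there. The part of smooth muscle content in these HOX values was not tested.

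**Figure D3:**
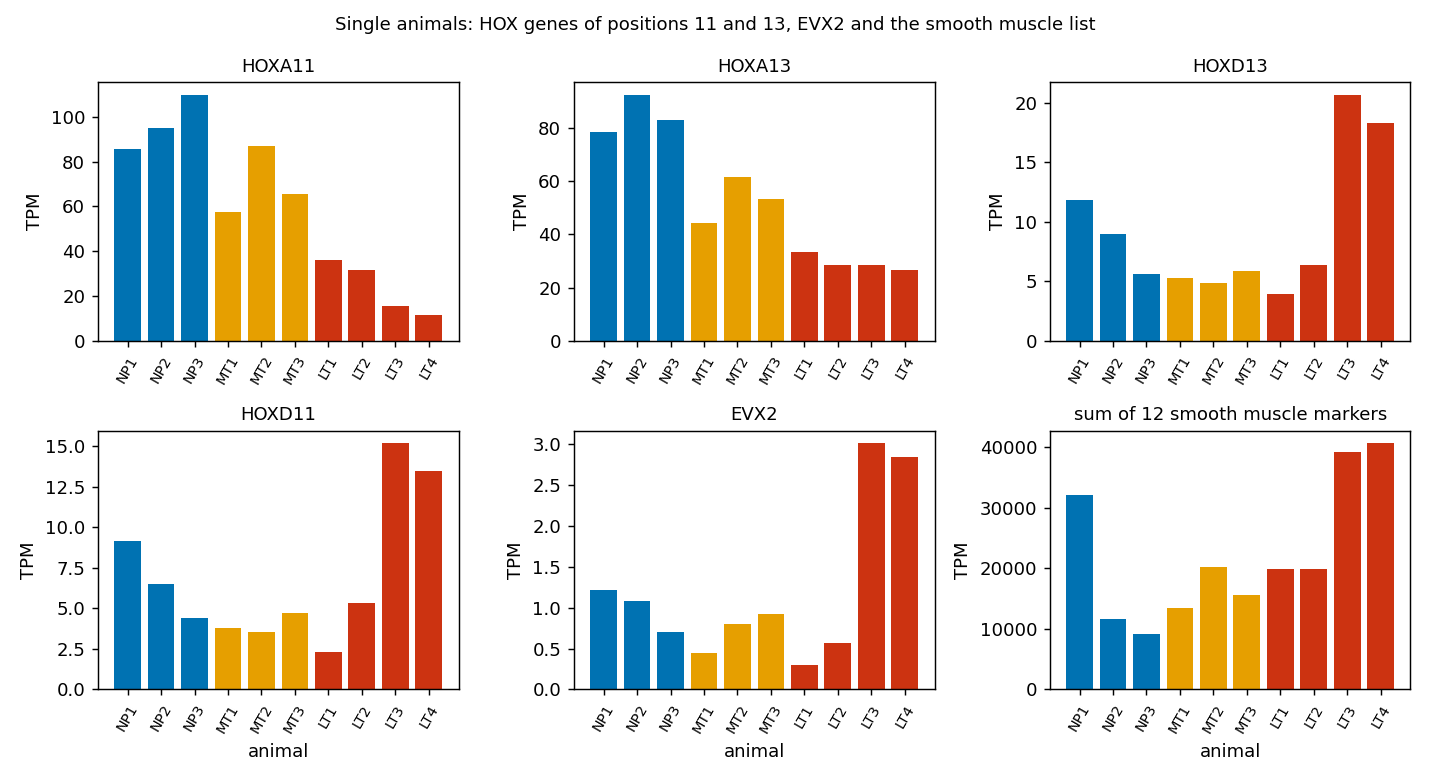
TPM in each animal (NP blue, MT orange, LT red; axes from 0, each panel with its own scale) of HOXA11, HOXA13, HOXD13, HOXD11, EVX2 and the sum of 12 smooth muscle markers. LT3 and LT4 are highest for HOXD13 (20.7 and 18.3 TPM), HOXD11, EVX2 and the smooth muscle sum and lowest for HOXA11 (15.5 and 11.3 TPM), while HOXA13 is alike in the 4 LT animals (26.7 to 33.5 TPM).

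Over the 17 HOX genes tested, 4 fell from NP to MT (HOXA3, HOXA6, HOXA13 and HOXD4) and 0 rose. Of all 12645 genes, 12.2% fell and 6.27% rose in that comparison. In 6 HOX genes every MT animal was below every NP animal, and in HOXB7 every MT animal was above, against 23.5% and 11.4% of all genes. The median change of the 17 was -0.58. The call for HOXA3, HOXA6 and HOXD4 was close to the threshold: the count of HOX genes that fell was 6 without NP1, 2 without MT2 or LT1, and 1 without any of NP2, NP3, MT3, LT2, LT3 or LT4. For a single gene in 3 against 3 animals an exact two-sided permutation test cannot give less than 0.1, and all 4 genes gave 0.1.

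From MT to LT, 10 of the 17 fell (HOXA3, HOXA5, HOXA6, HOXA11, HOXA13, HOXB2, HOXB4, HOXB5, HOXD3 and HOXD4) and 0 rose, beside 22.7% and 6.73% of all genes. In 11 HOX genes every LT animal was below every MT animal, which held for 35.5% of all genes. The median change was -0.81. The calls of HOXA3, HOXA11, HOXA13, HOXB2, HOXD3 and HOXD4 passed under all 21 alternatives. HOXA5 lost its call on square-root TPM (adjusted p = 0.0518) and without MT1, MT2, LT2 or LT3 (adjusted p = 0.0734 to 0.107), and HOXB4 without MT2 (adjusted p = 0.0681). In limma with the replicate number as a block, HOXA5, HOXA6, HOXB4 and HOXB5 all lost their calls (adjusted p = 0.0576 to 0.0695).

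From NP to LT, 12 fell, the same 10 with HOXB6 and HOXD9, and 0 rose, beside 41.9% and 11.2% of all genes. The median change was -1.13. In 12 HOX genes every LT animal was below every NP animal, against 40.6% of all genes. On the log2(TPM + 1) scale the largest falls were those of HOXA11 and HOXD4, each by 2.13 (adjusted p = 0.000937 and 0.000212), followed by HOXA3 with -1.93 (adjusted p = 0.000291), HOXD3 with -1.91 (adjusted p = 0.000332) and HOXA6 with -1.84 (adjusted p = 0.000305). This order depends on the pseudocount: by the ratio of mean TPM in NP to LT, HOXD4 (7.17), HOXA6 (6.74), HOXD3 (6.55) and HOXA3 (5.20) stood above HOXA11 (4.09). An exact permutation test of the F statistic over the 3 stages, on square-root TPM, gave an unadjusted p under 0.05 for 12 of the 17 HOX genes and for 58.4% of all genes. HOXA3, HOXA6 and HOXA13 reached the smallest p that its 4200 assignments allow, 0.000476.

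The shift of the median gene matters to these counts. With TPM rescaled by median ratios, the genes called in the whole table were 1378 higher and 904 lower from NP to MT, in place of 793 and 1549. They were 1848 higher and 1868 lower from MT to LT, in place of 851 and 2872, and 3330 higher and 2955 lower from NP to LT, in place of 1417 and 5301. The HOX genes that fell were then 2, 9 and 11 in the 3 comparisons, beside 7.15%, 14.8% and 23.4% of all genes. HOXB7 alone rose, from NP to MT and from NP to LT, beside rises in 10.9%, 14.6% and 26.3% of all genes. The median HOX changes were -0.46, -0.64 and -0.82.

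**Figure D4:**
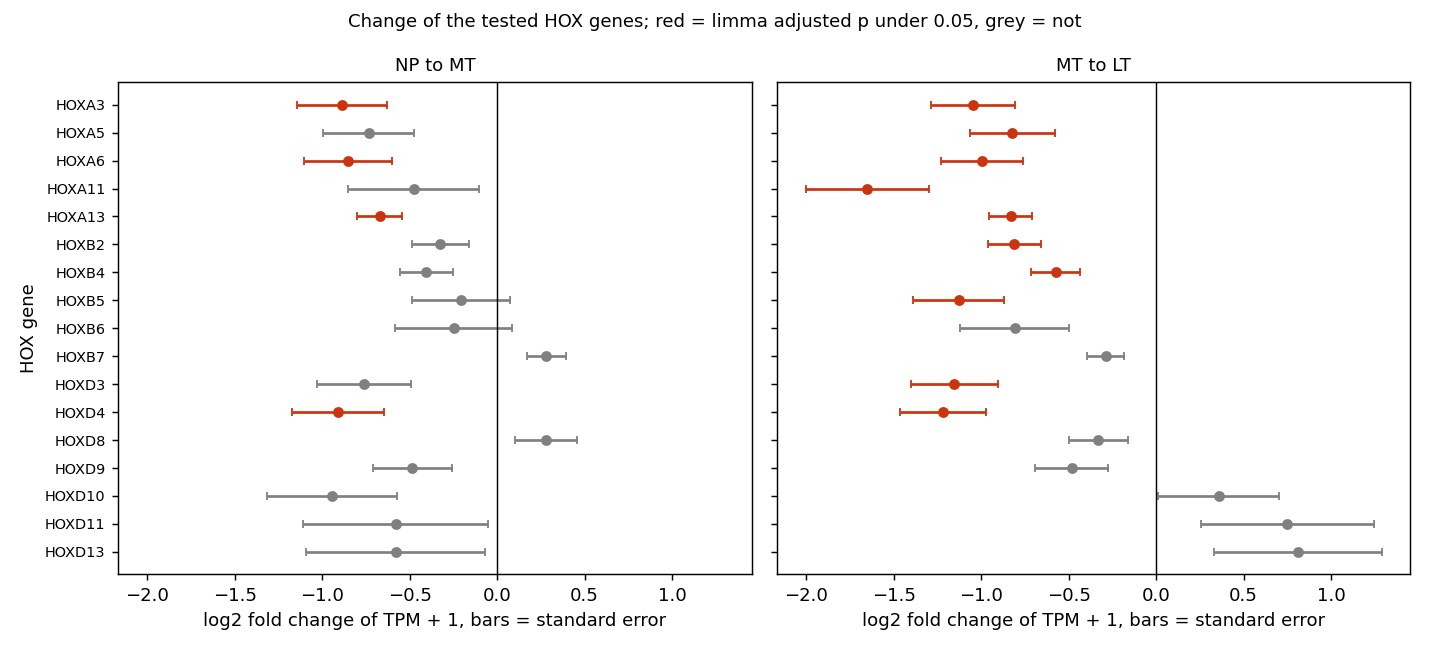
Log2 fold change of TPM + 1 for the 17 tested HOX genes from NP to MT (left) and from MT to LT (right), with bars of 1 standard error and red points for a limma adjusted p under 0.05. The 4 red points on the left and the 10 on the right all lie below 0, and HOXD10, HOXD11 and HOXD13 lie above 0 on the right with wide bars.

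By cluster, all 5 tested HOXA genes fell from NP to LT, 4 of 5 HOXB genes and 3 of 7 HOXD genes, with median changes of -1.84, -1.06 and -0.59, beside 41.9% of all genes. With the rescaled TPM, HOXB6 lost its call and HOXB7 rose, so that 3 of 5 HOXB genes fell, while the HOXA and HOXD counts were unchanged, beside 23.4% of all genes. By position, all 3 tested genes of positions 1 to 3 fell (median -1.91), 6 of 8 of positions 4 to 8 (median -1.20, 5 of 8 with the rescaled TPM) and 3 of 6 of positions 9 to 13 (median -0.78). The difference between clusters or positions was not tested, since the genes of a cluster share the same animals. Of the paralogs at position 13, HOXA13 changed by -0.67 from NP to MT and -0.83 from MT to LT, and HOXD13 by -0.58 and 0.81, of which neither passed. At position 11 the MT to LT changes were -1.65 for HOXA11 and 0.75 for HOXD11, which did not pass, and differences between paralogs were not tested. The anterior paralogs HOXA3 and HOXD3 had NP to LT changes of -1.93 and -1.91. Against the 3 TPM threshold, the mean of HOXA6 went below it from NP to MT and those of HOXA3, HOXA5, HOXB5, HOXD3 and HOXD4 from MT to LT, and no HOX gene crossed it upward. Means declined at both steps in 12 of the 17 genes, were highest in MT for HOXB7 and HOXD8, and were lowest in MT for HOXD10, HOXD11 and HOXD13. All 17 had an NP mean of at least 3 TPM, so none of them could cross the threshold upward from NP. The median gene of all those tested also fell at both steps (-0.14 and -0.16). The shares of all genes with these crossings and patterns were not counted.

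Among the HOX genes below the filter, a lower filter of 1 TPM added HOXA2, HOXB9, HOXC4 and HOXD12. HOXA2 (1.73, 0.970 and 0.467 TPM in NP, MT and LT) changed by -0.90 from NP to LT (SE 0.17, adjusted p = 0.00178), and HOXC4 by -0.99 (SE 0.33, adjusted p = 0.0305). With this filter 14 of 21 HOX genes fell from NP to LT, beside 41.5% of all genes. HOXB9 and HOXD12 did not pass in any comparison. With no filter, 17 of 30 HOX genes fell from NP to LT, beside 33.8% of all genes. These 17 include HOXC5 (adjusted p = 0.0249) and HOXC10 (adjusted p = 0.0133), which rest on 39 and 28 reads over all animals.

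HOX proteins bind DNA together with TALE homeodomain partners of the PBX, MEIS and PKNOX families. Of 9 such genes tested (with the related TGIF genes), 5 fell and 1 rose from NP to MT, 5 fell and 0 rose from MT to LT, and 8 fell and 0 rose from NP to LT, with a median of -0.84 in the last, beside falls in 12.2%, 22.7% and 41.9% of all genes. With the rescaled TPM, 3 fell and 2 rose from NP to MT, 4 fell from MT to LT, and 6 fell from NP to LT (median -0.54), beside falls in 7.15%, 14.8% and 23.4% of all genes. MEIS2 averaged 94.5 ± 15.2 TPM in NP and 43.8 ± 1.82 TPM in LT, a fall that passed the test (-1.08, adjusted p = 0.000137). PKNOX2 rose from NP to MT (0.70, adjusted p = 0.0198) and fell from MT to LT (-1.54, adjusted p = 0.00162), with 13.9, 23.0 and 7.32 TPM. TGIF2, a repressor of the same homeobox class, fell at both steps, from 27.2 to 12.8 and 7.07 TPM.

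Polycomb and Trithorax proteins keep HOX genes closed or open in differentiated tissue. Of 23 tested, 6 fell and 1 rose from NP to MT, 10 fell and 1 rose from MT to LT, and 18 fell and 1 rose from NP to LT (median -0.54), beside falls in 12.2%, 22.7% and 41.9% of all genes. With the rescaled TPM, 10 of the 23 fell from NP to LT and 1 rose, beside falls in 23.4% of all genes. EZH2, the methyltransferase of Polycomb repressive complex 2, had 5.82 ± 1.76, 2.20 ± 0.566 and 6.62 ± 1.78 TPM. It fell by 1.07 (adjusted p = 0.0195) and then rose by 1.24 (adjusted p = 0.00650). The means of HOXD10, HOXD11 and HOXD13 were also lowest in MT, without passing. By animal, EZH2 was at 8.96, 7.03, 5.44 and 5.07 TPM in LT, lowest in LT3 and LT4, where these HOXD genes were highest. In NP it was lowest in NP1 (3.87 TPM), which had the highest values of these HOXD genes. In MT the lowest animal was MT2 for EZH2 and for each of these HOXD genes. A link between EZH2 and the HOXD genes was not tested. RBBP7, a histone-binding subunit, rose from NP to MT (1.30, adjusted p = 0.00183). CBX2 and CBX7, which read the Polycomb mark, fell from NP to LT by 1.53 (adjusted p = 0.000498) and 1.44 (adjusted p = 0.000564), as did KDM6B, which removes it (-1.58, adjusted p = 0.000120).

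Retinoic acid is a classical inducer of anterior HOX genes in the embryo. Of 11 tested genes of its pathway, 2 fell and 0 rose from NP to MT, 3 fell and 2 rose from MT to LT, and 5 fell and 1 rose from NP to LT, beside falls in 12.2%, 22.7% and 41.9% and rises in 6.27%, 6.73% and 11.2% of all genes. The NP to LT median was -0.23. With the rescaled TPM it was 0.10, and 4 fell and 4 rose, beside 23.4% and 26.3% of all genes. ALDH1A2, which makes retinoic acid, had 234, 245 and 190 TPM in NP, 79.1, 158 and 116 TPM in MT, and 26.6, 15.4, 8.60 and 6.10 TPM in LT. The stages did not overlap, and LT3 and LT4 were the lowest. ALDH1A2 fell by 3.10 (SE 0.41, adjusted p = 0.00193) from MT to LT. CRABP2, which carries retinoic acid to the nucleus, rose between MT (218 ± 114 TPM) and LT (578 ± 106 TPM) by 1.53 (adjusted p = 0.00880), so these genes of synthesis and transport moved in opposite directions. A link between these genes and the HOX genes was not tested.

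Other patterning genes of the reproductive tract were taken as a further list. Of 17 tested, 5 rose and 0 fell from NP to MT, 0 rose and 6 fell from MT to LT, and 3 rose and 5 fell from NP to LT (median 0.09), or 6 rose and 5 fell with the rescaled TPM. The shares of all genes were 6.27% rising from NP to MT, 22.7% falling from MT to LT, and 11.2% rising and 41.9% falling from NP to LT (26.3% and 23.4% rescaled). MSX1 and MSX2, homeobox genes of the uterine epithelium and stroma, rose from NP to MT by 1.07 (adjusted p = 0.00536) and 1.90 (adjusted p = 0.000174), where HOXA13 fell. EMX2 fell by 1.48 (adjusted p = 0.00622) and TBX3 by 1.06 (adjusted p = 0.00622) from MT to LT. Of 9 tested genes that flank the HOX clusters, 1 fell and 0 rose from NP to MT, 1 fell and 2 rose from MT to LT, and 2 fell and 0 rose from NP to LT (median -0.10), where 12.2%, 22.7% and 41.9% of all genes fell. With the rescaled TPM the last counts were 1 and 3 (median 0.22), beside 23.4% and 26.3% of all genes. CALCOCO1, beside the HOXC cluster, fell by 1.42 from NP to LT (adjusted p = 0.000650), and SNX10, beside the HOXA cluster, rose by 1.02 from MT to LT (adjusted p = 0.0125).

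Markers of several cell types moved over the same stages. All 8 tested endothelial markers fell from NP to LT (median -1.19) and 7 of 8 fell from MT to LT, or 5 of 8 in the latter with the rescaled TPM, beside falls in 41.9% and 22.7% of all genes (14.8% in the latter when rescaled). The sum of the 8 endothelial markers with a row, of 10 listed, ranged from 177 to 240 TPM in NP, from 126 to 186 in MT and from 71.5 to 112 in LT. No marker of any of these lists was at 0 in all animals. Of 8 fibroblast markers 4 fell from NP to LT, with either scaling, beside 41.9% of all genes or 23.4% rescaled, PDGFRA among them (-1.18, adjusted p = 0.00134). None rose, beside 11.2% of all genes, but 1 rose with the rescaled TPM, beside 26.3%. From MT to LT 2 fell and LUM rose (0.91, adjusted p = 0.00761), beside falls in 22.7% and rises in 6.73% of all genes. The fibroblast sum, set by collagens, overlapped between stages (6200 to 10755 TPM in NP, 5327 to 10079 in MT, 6233 to 9280 in LT). Of 12 tested leukocyte markers 4 rose and 1 fell from NP to LT, with either scaling, where 11.2% of all genes rose and 41.9% fell (26.3% and 23.4% rescaled). The sum of the 15 with a row, of 19 listed, ranged from 4607 to 8518 TPM in NP, from 9117 to 13452 in MT and from 15126 to 19402 in LT, although the median change of the tested markers was -0.39. The sum is set by S100A8 and S100A9, with LT means of 9050 and 8006 TPM. Of 9 tested secretory epithelial markers 4 rose and 1 fell from NP to MT, beside 6.27% and 12.2% of all genes. The sum of the 10 with a row, of 14 listed, was 1099 to 1267 TPM in NP against 2173 to 2925 in MT and 1921 to 2256 in LT. The sum of the 10 squamous markers with a row, of 17 listed, ranged from 1121 to 3895 TPM in NP, from 238 to 1517 in MT and from 1760 to 3481 in LT. Of the 8 tested, 3 fell from NP to LT while the median was 0.26, beside falls in 41.9% of all genes. Of 12 smooth muscle markers 2 rose from NP to LT (TAGLN and OXTR) and 0 fell, beside rises in 11.2% of all genes, and 3 rose with the rescaled TPM, beside 26.3%. The part of these cell types in the HOX changes was not tested.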

How the data were processed

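Cervix RNA of 10 guinea pigs (NP 3, MT 3, LT 4) was sequenced by the authors as single-end 75-base strand-specific reads, aligned to cavPor3.69 with TopHat2 and counted per gene with HTSeq 0.5.4p1, after CASAVA 1.8.2 (versions from the submitters' processing notes and the methods). The deposited counts are raw reads per gene, and the TPM values were made by the authors from the same counts. The strand setting of the counting is not given in the sources used here, so reads of antisense HOX transcripts may be included, and reads in sequence shared by paralogs may be misassigned.

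The HOX rows and their stage values were taken from the TPM columns. limma 3.58.1 (R 4.3.3, trend) was fitted on log2(TPM + 1) over the 10 animals with stage as the only term and without the replicate number, for the 12645 genes whose mean reached 3 TPM in some stage. P-values were adjusted by Benjamini-Hochberg over all of these, with a threshold of 0.05. A pseudocount of 1 understates the change of low genes. Replicates are separate animals per the methods. The fit was tested on simulated data. Alternatives were a pseudocount of 0.1, square-root TPM, filters of 1 TPM and none, median-ratio scaling, limma without the trend, a fit of only the 2 stages compared, the replicate number as a block, edgeR 4.0.16 (with TMM or DESeq2 size factors) and DESeq2 1.42.0 on the counts, and each animal left out. Values per animal are given for HOX genes that passed in any comparison and for the 3 of highest mean TPM, and other lists name at most 4 genes each per comparison. The members and lists were chosen with earlier results of these data known. Some genes of the table are not reported here.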

Additional observations from a re-analysis of the deposited data

Results flagged for a closer look

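Among the 21 HOX genes with at least 100 reads, HOXA3 in LT was picked out because 1 animal stood apart: LT1 was at 1.35 TPM, while the others lay between 2.44 and 2.48 TPM. Its gap to the nearest animal was 0.963 of the range, above the 95% critical ratio of Dixon's test for 4 animals. Chance alone picks about 1 group in 20.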

How the results depend on the processing

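The count of HOX genes lower in MT than in NP was 4, and it was 2 with a pseudocount of 0.1, with median-ratio scaling, with edgeR under either scaling and in a fit of only the 2 stages, and it ranged from 1 to 6 with an animal left out. The count higher in MT was 0, and 1 (HOXB7) with median-ratio scaling, with edgeR under either scaling and with DESeq2. From MT to LT the count higher was 0, and 1 with DESeq2, with a range of 0 to 1 with an animal left out. From NP to LT the count higher was 0, and 1 with median-ratio scaling, edgeR with TMM and DESeq2. The median change without a filter was -0.31 from MT to LT and -0.67 from NP to LT, and -0.82 from NP to LT with median-ratio scaling. Reversed single genes were HOXB7 from NP to LT (0.31 with median-ratio scaling, 0.29 with edgeR under either scaling and DESeq2, -0.11 to 0.069 with an animal left out), HOXD8 from NP to LT (0.26, 0.23, 0.23 and 0.23 under the same, -0.18 to 0.059), HOXB6 from NP to MT (-0.66 to 0.076 with an animal left out), HOXD11 from NP to LT (-0.15 to 0.62) and HOXD13 from NP to LT (-0.092 to 0.62). The cause was not tested. Of the other single-gene values, 975 kept their direction and side of the threshold, 58 lost and 15 gained a call.

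The replicate numbers did not pair the animals: 3 of 9 same-numbered pairs had a correlation of deviations over 0.1 (range -0.29 to 0.25), and 1 animal correlated best with its own number in both other stages. With the replicate number as a block, the HOX genes that fell numbered 1 from NP to MT and 6 from MT to LT, and the NP to LT changes of HOXD11 and HOXD13 were -0.093 and -0.035. At 3 TPM a gene had 55 to 104.5 reads in the median, and the HOXC genes, all below 3 TPM in each stage mean, rest on far fewer.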
